A study of Mus musculus with 107 samples.

Results

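G5 and D10 are the 2 clones of mouse embryonic stem (ES) cells in which one PRC2-bound element on chromosome 2 was deleted, and their RNA was compared gene by gene across the genome. The comparison rests on 6 libraries, 3 of each clone, chosen by the clone named in the labels, out of 26 RNA libraries with counts and 107 samples in the series. All cells were B6NJ mouse ES cells grown on irradiated embryonic fibroblast feeders with PD0325901 and CHIR99021, inhibitors of MEK and of GSK3. The sources used here give neither the position nor the size of the deleted interval, so that its loss was not checked in the counts. Side by side with the 2 clones stand the undeleted parental line, clones F1 and G9 of a chromosome 9 deletion, D4 and F4 of a chromosome 7 deletion, and C2 and H7 of a chromosome 3 deletion, under the same culture conditions. Each clone is 1 cell line, so that a difference between G5 and D10 is a difference between 2 clones that carry the same named deletion. The labels do not say whether the libraries of a clone came from separate cultures. The p-values then measure only the spread between libraries of a line, estimated over all 26 RNA libraries, and this spread may be technical.

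Polycomb repressive complex 2 (PRC2), which holds the subunits Eed, Suz12 and Ezh2 or Ezh1, places methyl groups on lysine 27 of histone H3 (H3K27me3) and keeps developmental genes low in ES cells. ES cells move between a naive state, held by inhibition of MEK and GSK3, and a formative or primed state in which genes such as Otx2 and Dnmt3b are higher. Clones grown from single cells can keep differences in expression, imprinting and chromosome content for many divisions.

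The 6 libraries held 39702669 to 48604440 counts, so that the clones had like depth, beside 41285110 to 60219244 counts in the chromosome 7 and 3 clones. Values are normalised read counts in CPM (counts scaled to a library of 1e6 by TMM factors). The sums over cell type markers are instead counts per 1e6 of the library total, without TMM factors. The value after ± beside a log2 difference of G5 minus D10 is an approximate standard error, and edgeR's adjusted p follows. This error is the size of the difference divided by the square root of edgeR's F statistic. Each clone had 3 libraries, but both values use a spread estimated from all 26 RNA libraries in the model. For each called gene whose 6 values are given below, the 3 libraries of one clone lay above the 3 of the other, as they did for 56% of all genes tested. Markers of ES cells were high in both clones, with a summed level of 2706 to 3044 CPM in D10 and 3318 to 3409 CPM in G5 over Pou5f1, Sox2, Nanog, Zfp42, Esrrb and Klf4. The 11 feeder fibroblast markers summed to 43.7 to 47.3 CPM in D10 and 52 to 56.1 CPM in G5, beside 18.7 to 43.8 CPM in the chromosome 7 and 3 clones, and none of the 11 was at 0 in all 6 libraries. The markers of primitive endoderm, trophoblast, neuroectoderm and mesoderm each summed to at most 15.3 CPM in any of the 6 libraries. One D10 library stood apart: replicate 1 held 16852 CPM of 7 transcripts that include RNAs without a poly(A) tail (Rmrp, Rpph1, Rn7sk, Rn7s2, Gm42418, Lars2 and AY036118), against 7467 and 4612 CPM in the other D10 libraries and 2113 to 2517 CPM in G5. These 7 were picked after their values were seen. The part of these transcripts and of feeder RNA in other differences was not tested, and in bulk RNA fewer cells of a type and less RNA per cell cannot be told apart.

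G5 and D10 differed at many genes, mostly by little. Of 19993 genes tested, 10132 (50.7%) passed edgeR's quasi-likelihood test at an adjusted p of 0.05, 5142 higher and 4990 lower in G5. Among the called genes the median difference was 1.43-fold. A test against a 1.5-fold change left 2087 genes (10.4%), 1163 higher (5.82%) and 924 lower (4.62%). Among called genes, 340 were at least 4-fold higher and 251 at least 4-fold lower in G5. Without D10 replicate 1 the same test gave 1022 higher and 856 lower. DESeq2 with a 1.5-fold threshold called fewer, 783 higher and 604 lower. In a fit to the 18 libraries of like depth, those of the chromosome 7, 3 and 2 clones, edgeR's 1.5-fold test gave 942 higher and 943 lower.

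Between the other pairs of clones, the 1.5-fold test in the same model was passed by 192 genes (0.96%) between chr9 clones G9 and F1, by 9 (0.045%) between chr7 clones F4 and D4 and by 13 (0.065%) between chr3 clones H7 and C2. Clone F1 of the chromosome 9 deletion had 2 libraries, and the chromosome 9 libraries were deeper, at 90252569 to 127770540 counts. Whether the numbers of genes differ between pairs was not tested. Against the mean of the 4 chromosome 7 and 3 clones, 3615 genes (18.1%) passed 1.5-fold in G5 and 2725 (13.6%) in D10. These 2 comparisons share their control libraries.

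Among genes of at least 5 CPM in the higher clone and without overlap of libraries, the largest differences lay in single genes of varied function. Symbols with Gm or Rp plus digits, Rpl, Rps, Rik or -ps were left out of this choice. Genes under 5 CPM, such as Myc below, could differ by more. Nefm, the medium chain of the neurofilaments of axons, measured 1.53, 1.9 and 2.42 CPM in D10 and 18.8, 16.7 and 18.1 CPM in G5 (log2 difference 3.2 ± 0.18, edgeR adjusted p = 2.19e-15). All 3 G5 libraries were far above D10, and D10 lay above the 0.386 to 0.515 CPM of the chromosome 7 and 3 clone means. Nefh, the heavy neurofilament chain, measured 3.5, 4.84 and 3.76 CPM in D10 and 18.6, 19 and 16.9 CPM in G5 (log2 difference 2.17 ± 0.11, edgeR adjusted p = 1.08e-16). Tdh, threonine dehydrogenase, a mitochondrial enzyme that mouse ES cells use to break down threonine, measured 51.8, 54.6 and 47.4 CPM in D10 and 337, 328 and 269.6 CPM in G5 (log2 difference 2.6 ± 0.12, edgeR adjusted p = 8.02e-18). D10 lay below and G5 above the chromosome 7 and 3 clone means of 113 to 241 CPM, and the parental mean was 474 CPM.

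For Neat1, the long noncoding RNA that builds paraspeckles, G5 was the clone farther from the other lines. It measured 60.2, 53.1 and 61.4 CPM in D10 and 284, 288 and 296 CPM in G5 (log2 difference 2.31 ± 0.11, edgeR adjusted p = 3.69e-17), and the means of the parental line and of the clones of the other deletions lay between 67.8 and 115 CPM. Its neighbour Malat1, a nuclear noncoding RNA chosen here after its values were seen, went the other way with 784, 685 and 546 CPM in D10 and 321, 303 and 316 CPM in G5 (log2 difference -1.1 ± 0.17, edgeR adjusted p = 1.34e-06). Wdr45, an X-linked autophagy gene, measured 7.28, 8.98 and 8.45 CPM in D10 and 48.6, 45.1 and 41.8 CPM in G5 (log2 difference 2.45 ± 0.10, edgeR adjusted p = 1.26e-18). Lefty2, an inhibitor of Nodal signalling, measured 15.4, 21.3 and 16.9 CPM in D10 and 97.5, 95.4 and 76.6 CPM in G5 (log2 difference 2.33 ± 0.17, edgeR adjusted p = 7.26e-13). Other large rises were Gc (2.51), Notum (2.34), Bicd1 (2.33), Aoah (2.17) and Oas1a (2.07) on the log2 scale, of which Gc encodes vitamin D-binding protein, Bicd1 a dynein adaptor and Oas1a an antiviral oligoadenylate synthetase.

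On the side of D10, S100a13 and S100a1, adjacent genes of calcium-binding proteins on chromosome 3, were both lower in G5. S100a13 measured 167, 141 and 137 CPM in D10 and 28.6, 27.1 and 30.1 CPM in G5 (log2 difference -2.37 ± 0.13, edgeR adjusted p = 3.35e-16), and its G5 values lay near the 23.9 to 30.0 CPM of the chromosome 7 and 3 clone means. S100a1 measured 44.5, 36.3 and 32.9 CPM in D10 and 5.83, 6.12 and 7.65 CPM in G5 (log2 difference -2.53 ± 0.12, edgeR adjusted p = 2.85e-17). The annotated ends of these 2 genes overlap, and no source used here says if reads were counted by strand, so that their values are uncertain. Fgg, a chain of fibrinogen, measured 8.71, 9.78 and 8.33 CPM in D10 and 1.15, 1.49 and 0.765 CPM in G5 (log2 difference -3.0 ± 0.19, edgeR adjusted p = 1.37e-14), with the D10 mean inside the 8.39 to 11.6 CPM of the chromosome 7 and 3 clone means. Krt7, a keratin of simple epithelia, measured 9.52, 9.92 and 11.7 CPM in D10 and 2.25, 2.45 and 2.6 CPM in G5 (log2 difference -2.09 ± 0.12, edgeR adjusted p = 5.34e-15). The other large falls were Rassf6 (-2.79), Adssl1 (-2.47), Card14 (-2.43), Gpr143 (-2.33) and Aatk (-2.14). Rmrp and Rpph1, the RNA parts of the ribonucleases MRP and P, were lower (-3.16 and -2.64), as was AY036118 (-2.21). Without D10 replicate 1, in which these transcripts were high, AY036118 was not called (-1.46, adjusted p = 0.138), nor was it without G5 replicate 1 (-1.95, adjusted p = 0.0639), while Rmrp remained called (-2.98, adjusted p = 0.00117).

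**Figure D1:**
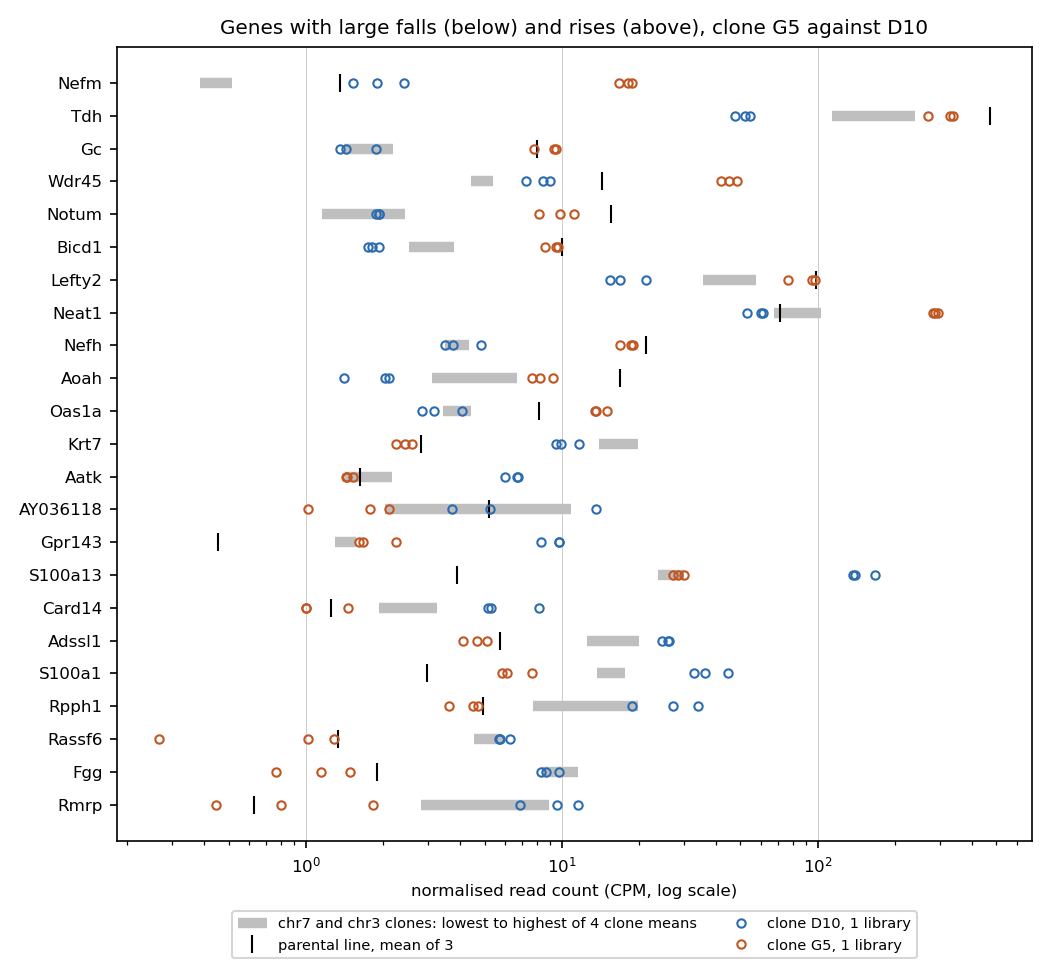
Normalised read counts (CPM, log axis) of 11 of the 12 largest rises and of the 12 largest falls in G5. They were chosen among genes of at least 5 CPM in the higher clone, with the symbol forms named in the text left out. Each circle is a library, and a tick gives the parental mean. Grey bars run from the lowest to the highest of the 4 chromosome 7 and 3 clone means. The 3 libraries of G5 and the 3 of D10 do not overlap for any of these genes, which the choice of genes required, and the clone that lies away from the grey bar is G5 for some genes, such as Notum, and D10 for others, such as S100a13.

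Among abundant genes, the differences were smaller on the log2 scale but covered many counts. Gart, an enzyme of purine synthesis, measured 390.2, 374 and 354 CPM in D10 and 1328, 1366 and 1294 CPM in G5 (log2 difference 1.83 ± 0.05, edgeR adjusted p = 5.32e-24). Actb, cytoplasmic actin, averaged 728 ± 42.3 CPM in D10 and 1234 ± 53.6 CPM in G5 (SD, n = 3 each). Hspd1, a mitochondrial chaperonin, averaged 754 ± 6.52 CPM in D10 and 1250.1 ± 46.7 CPM in G5. Trim28, the corepressor recruited by KRAB zinc-finger proteins, averaged 733 ± 24.8 CPM in D10 and 1223 ± 36.3 CPM in G5. The other 4 of the 8 most abundant genes past 1.5-fold on this side were Nasp (0.82), Tuba1b (0.82), Odc1 (0.79) and Cfl1 (0.71). Lower in G5 were Ftl1, the ferritin light chain, at 5016, 4663 and 4808 CPM in D10 and 2501, 2509.6 and 2540 CPM in G5 (log2 difference -0.94 ± 0.06, edgeR adjusted p = 2.07e-14), and Txnip, a thioredoxin-binding protein that follows glucose, at 1394, 1359 and 1354 CPM in D10 and 466, 452 and 569.6 CPM in G5 (log2 difference -1.47 ± 0.07, edgeR adjusted p = 1.95e-17). The others were Gm42418 (-2.32), Lars2 (-1.45), Gas5 (-1.05), Gpi1 (-0.90), Rpl27a (-0.82) and Igfbp2 (-0.76). Without D10 replicate 1 the differences of Gm42418 and Lars2 were smaller (-1.56, adjusted p = 0.0384 and -1.01, adjusted p = 0.0107). Ribosomal protein genes, taken by symbol after the data were seen, were lower in G5 in 77 of 84 cases and higher in 3, with a median of -0.38. Many have processed copies elsewhere in the genome, so that single members are uncertain.

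Formative, primed and general pluripotency genes were more often higher than lower in G5. The counts below are read against all genes tested, of which 25.7% were higher and 25% lower, with a median log2 difference of 0.01. In the formative and primed list, of 22 tested members 16 were higher and 1 lower in G5, with a median log2 difference of 0.82. Dnmt3b, a de novo DNA methyltransferase, measured 52.5, 44.9 and 44.9 CPM in D10 and 166, 168 and 152 CPM in G5 (log2 difference 1.77 ± 0.06, edgeR adjusted p = 3.27e-20). Foxd3, a forkhead factor, measured 0.674, 1.33 and 1.05 CPM in D10 and 3.48, 4.34 and 2.86 CPM in G5, and Otx2, a homeobox factor of the formative state, measured 0.876, 0.771 and 0.862 CPM in D10 and 1.64, 1.91 and 2.19 CPM in G5, at low levels in both clones. Further members were Cdh2 (1.36), Lef1 (1.29), Etv4 (1.14) and Lefty1 (1.04). The member lower in G5 was Grhl2 (-0.74), an epithelial factor, and Fgf5 stood near 0 in both clones, at 0.116 and 0.213 CPM on average. Without G5 replicate 3, 2 members were lower.

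In the general pluripotency list, of 16 tested members 11 were higher and 2 lower in G5, with a median log2 difference of 0.55. Dppa2, a chromatin factor that binds promoters of early embryonic genes, measured 26.4, 31.1 and 28.8 CPM in D10 and 101, 98.6 and 81.6 CPM in G5 (log2 difference 1.7 ± 0.09, edgeR adjusted p = 1.74e-16). L1td1, an RNA-binding protein derived from a LINE-1 element, measured 77.6, 117 and 101 CPM in D10 and 307, 327 and 263 CPM in G5 (log2 difference 1.6 ± 0.11, edgeR adjusted p = 8.68e-14). The chromosome 7 and 3 clone means were 31.8 to 43.5 CPM for Dppa2, where G5 stood above them, and 216 to 287 CPM for L1td1, where D10 stood below them. Cdh1, the epithelial cadherin, was lower in G5 (-0.40), and Sox2 was not called (-0.06). In the naive list, of 23 tested members 10 were higher and 5 lower in G5, with a median log2 difference of 0.10. Tdh led it, followed by Manba (1.5), Gbx2 (1.27) and Nr0b1 (1.03), and Pecam1 fell by 0.91 from 227 to 121 CPM. The naive transcription factors Esrrb (-0.08), Klf2 (0.01), Klf5 (-0.01), Tfcp2l1 (0.10) and Tbx3 (0.11) were not called.

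**Figure D2:**
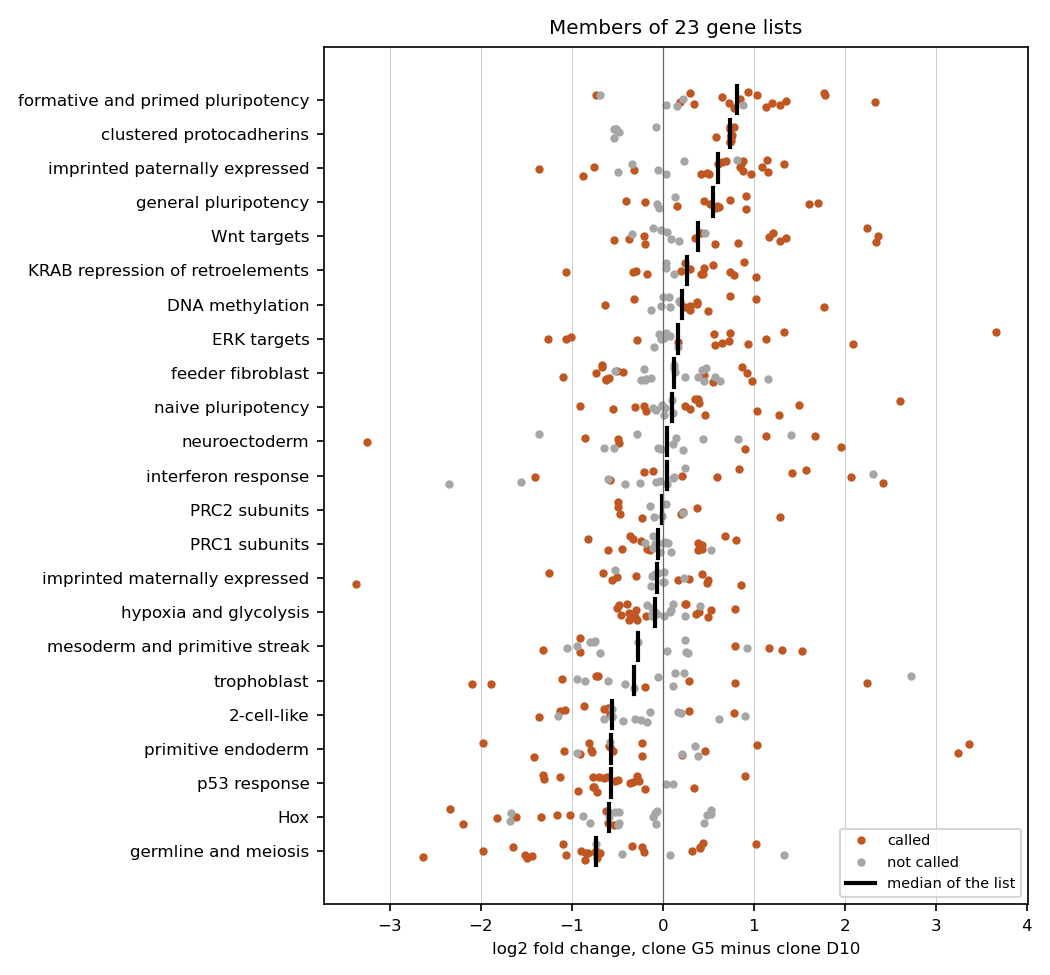
Log2 fold change of G5 minus D10 for each tested member of 23 gene lists, one point per gene, orange where the adjusted p was under 0.05 and grey otherwise, with a bar at the list's median. Formative and primed genes have the highest median and germline and meiosis genes the lowest.

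ERK and Wnt target genes, whose pathways the 2 inhibitors in the medium act on, were more often higher than lower in G5. In the ERK list, of 22 tested members 11 were higher and 4 lower in G5, with a median log2 difference of 0.17. Myc, a growth-promoting transcription factor, measured 0.314, 0.25 and 0.144 CPM in D10 and 3.78, 3.02 and 2.31 CPM in G5 (log2 difference 3.66 ± 0.37, edgeR adjusted p = 4.31e-10), and the chromosome 7 and 3 clone means were 1.19 to 2.45 CPM. Etv1, an ETS factor, measured 0.876, 1.19 and 1.46 CPM in D10 and 5.71, 4.39 and 4.85 CPM in G5 (log2 difference 2.09 ± 0.20, edgeR adjusted p = 1.46e-10), and Spry4, a feedback inhibitor of the pathway, 2.83, 3.9 and 3.62 CPM in D10 and 9.1, 9.54 and 7.42 CPM in G5 (log2 difference 1.33 ± 0.14, edgeR adjusted p = 1.22e-09). The immediate early gene Fos (-1.07) and the phosphatase Dusp4 (-1.26) were lower. In the Wnt list, of 22 tested members 11 were higher and 4 lower in G5, with a median log2 difference of 0.39. Notum, a secreted enzyme that inactivates Wnt ligands, measured 1.89, 1.94 and 1.94 CPM in D10 and 9.86, 11.2 and 8.13 CPM in G5 (log2 difference 2.34 ± 0.16, edgeR adjusted p = 1.43e-13), with D10 inside the 1.16 to 2.44 CPM of the chromosome 7 and 3 clone means. Lef1, a factor that binds DNA with beta-catenin, measured 5.48, 4.52 and 4.0 CPM in D10 and 11.2, 13 and 10.2 CPM in G5, and Axin2, a feedback inhibitor, measured 9.54, 8.4 and 7.76 CPM in D10 and 12.4, 11.5 and 10.4 CPM in G5. Without G5 replicate 1, 2 members were lower.

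Sp5, a zinc-finger factor of the Wnt response, was low in both clones, at 0.112, 0.0208 and 0.0479 CPM in D10 and 0.245, 0.471 and 0.241 CPM in G5 (log2 difference 2.36 ± 0.76, edgeR adjusted p = 0.00954), and was not called without D10 replicate 2 (adjusted p = 0.0546) or without G5 replicate 2 (adjusted p = 0.0518). Its promoter is shown because it has the letters of a TCF/LEF motif, CTTTGAT or CTTTGAA on either strand, found in 7.48% of 32851 RefSeq promoter windows (GRCm38.p6) of the same 250 bases before the gene start. Of 7 called Wnt target genes whose 13 windows were searched, 2 had a match, Sp5 and Sp8, the latter in 1 of its 3 windows, and Lef1, Axin2, Cdx2, Bmp4 and Nr5a2 had none. The capitals mark the match, which is a description and not a binding site.
Sp5, chr2:70474673-70474922, plus strand: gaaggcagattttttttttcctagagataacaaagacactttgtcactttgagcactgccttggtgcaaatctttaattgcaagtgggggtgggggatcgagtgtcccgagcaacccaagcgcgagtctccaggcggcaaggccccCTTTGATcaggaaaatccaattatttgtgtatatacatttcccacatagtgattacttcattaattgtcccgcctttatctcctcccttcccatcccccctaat

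Genes of the germline, of the Hox clusters and of the primitive endoderm were more often lower in G5. Against the chromosome 7 and 3 clones, the medians of these lists were above 0 in both clones. They were 0.53 in G5 and 0.75 in D10 for germline and meiosis, 1.39 and 1.99 for Hox, and 0.10 and 0.28 for primitive endoderm. In the germline and meiosis list, of 28 tested members 5 were higher and 19 lower in G5, with a median log2 difference of -0.74. Ddx4, an RNA helicase of germ cells, measured 29.7, 33.6 and 31.4 CPM in D10 and 15.3, 14.2 and 14.8 CPM in G5 (log2 difference -1.1 ± 0.07, edgeR adjusted p = 2.31e-14), and Mov10l1, a helicase of the piRNA pathway, 10.1, 16.2 and 12.6 CPM in D10 and 4.23, 5.2 and 4.2 CPM in G5 (log2 difference -1.52 ± 0.12, edgeR adjusted p = 2.39e-12). Dazl, a germ cell RNA-binding protein, measured 102, 109.8 and 124 CPM in D10 and 68, 61.2 and 72 CPM in G5, both clones above the 14.1 to 16.1 CPM of the chromosome 7 and 3 clone means. Zfp57, which protects imprints and is also listed here, was higher (1.02). In the Hox list, of 28 tested members 0 were higher and 11 lower in G5, with a median log2 difference of -0.60. The 0 holds for edgeR and for DESeq2, and at an unadjusted p of 0.05 the number higher was also 0. Among the more abundant were Hoxc13 at 8.26, 9.63 and 8.5 CPM in D10 and 5.52, 4.91 and 6.92 CPM in G5 and Hoxb13 at 6.24, 5.59 and 6.51 CPM in D10 and 2.5, 3.64 and 2.94 CPM in G5. The count of Hox genes lower in G5 depended on single libraries. It was 3 without D10 replicate 3, 7 without G5 replicate 1 and 5 without G5 replicate 2, and 7 in a fit to the 18 libraries of like depth.

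In the primitive endoderm list, of 22 tested members 5 were higher and 12 lower in G5, with a median log2 difference of -0.57. Dab2, an endocytic adaptor, measured 0.988, 1.56 and 1.34 CPM in D10 and 0.205, 0.223 and 0.543 CPM in G5, and Hnf4a, a nuclear receptor of endoderm, 3.84, 5.07 and 4.24 CPM in D10 and 1.43, 1.64 and 1.85 CPM in G5. The basement membrane collagens Col4a1 and Col4a2 and the matrix protein Sparc were also lower (-0.55, -0.77 and -0.59). The higher members were Lamc1 (0.22), Rhox5 (0.46), Fst (1.03), Sox7 (3.24) and Foxa2 (3.37), of which Sox7 and Foxa2 averaged 0.577 and 0.0942 CPM in G5. Foxa2 was not called without D10 replicate 2 or 3 or without G5 replicate 1 or 2 (adjusted p from 0.0674 to 0.133). The 5 markers of primitive endoderm, of which 2 were higher and 1 lower, summed to 8.85 to 10.3 CPM in D10 and 5.59 to 8.85 CPM in G5. In the trophoblast list, of 19 tested members 3 were higher and 6 lower in G5, with a median log2 difference of -0.31. Gata2, a zinc-finger factor, measured 46.9, 28.4 and 34.6 CPM in D10 and 9.57, 8.67 and 11.3 CPM in G5 (log2 difference -1.89 ± 0.13, edgeR adjusted p = 9.94e-14), with the G5 mean just above the 7.04 to 9.56 CPM of the chromosome 7 and 3 clone means. The 4 trophoblast markers, of which 1 was higher and 1 lower, summed to 12.6 to 15.3 CPM in D10 and 4.88 to 5.95 CPM in G5. The lower marker was Krt7, named above among the large falls, and it made up most of the sum in D10. The Krt7 values above carry TMM factors and the sum does not. Without D10 replicate 3, 1 trophoblast member was higher. In the 2-cell-like list, of 23 tested members 2 were higher and 7 lower in G5, with a median log2 difference of -0.56. Against the chromosome 7 and 3 clones the median of this list was 1.19 in G5 and 1.75 in D10. Tmem92 measured 2.69, 3.56 and 4.69 CPM in D10 and 1.45, 1.69 and 2.05 CPM in G5. The Zscan4 and Usp17l genes are near-identical copies, so that single members are uncertain.

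In the neuroectoderm list, of 20 tested members 4 were higher and 4 lower in G5, with a median log2 difference of 0.05. Tubb3, a neuronal tubulin, measured 12.6, 12 and 10.9 CPM in D10 and 37.6, 41.1 and 34.6 CPM in G5 (log2 difference 1.67 ± 0.10, edgeR adjusted p = 6.67e-15), and Gap43, a growth cone protein, 1.06, 0.667 and 0.718 CPM in D10 and 2.5, 2.7 and 4.29 CPM in G5. The other higher members were Map2 (0.91) and Olig2 (1.14), and the lower ones were Nes (-0.48), Dlx3 (-0.50), Irx3 (-0.86) and Neurog2 (-3.25), of which Neurog2 averaged 0.0853 CPM in D10. Neurog2 was not called without D10 replicate 1 or 3 or without G5 replicate 1 or 2 (adjusted p from 0.111 to 0.167). The number of members lower was 2 without D10 replicate 1 and 2 without G5 replicate 1. In the mesoderm and primitive streak list, of 19 tested members 4 were higher and 3 lower in G5, with a median log2 difference of -0.28. There 2 members were higher without G5 replicate 1 and 5 lower without G5 replicate 3. In the feeder fibroblast list, of 31 tested members 5 were higher and 9 lower in G5, with a median log2 difference of 0.13. The number higher was 8 in a fit to the 18 libraries of like depth, 9 in a fit to the 6 libraries and 9 with no filter. Its defining collagen Col1a1 measured 14.2, 14.5 and 14.2 CPM in D10 and 16.9, 15.3 and 14.6 CPM in G5 and was not called, while Mmp2, a matrix protease, was lower (-1.1) and Col5a2, a fibrillar collagen, higher (0.98).

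Most target genes of p53 in the list were lower in G5, and Trp53 itself was higher. In the p53 list, of 22 tested members 2 were higher and 18 lower in G5, with a median log2 difference of -0.57. Against the chromosome 7 and 3 clones the median of this list was -0.08 in G5 and 0.49 in D10. Trp53, which encodes p53, measured 121, 123 and 116 CPM in D10 and 230.2, 231 and 211 CPM in G5 (log2 difference 0.90 ± 0.07, edgeR adjusted p = 3.98e-13). Mdm2, the ubiquitin ligase that degrades p53, measured 223, 227 and 234 CPM in D10 and 130.1, 130.2 and 141 CPM in G5 (log2 difference -0.77 ± 0.07, edgeR adjusted p = 5.45e-11), and Cdkn1a, the cell cycle inhibitor p21, 277, 268 and 283 CPM in D10 and 182, 175 and 185 CPM in G5 (log2 difference -0.61 ± 0.07, edgeR adjusted p = 2.76e-09). Eda2r, a receptor of the tumour necrosis factor family, measured 227, 214 and 227 CPM in D10 and 101, 93.6 and 112 CPM in G5, and Plk2, a kinase, 66.3, 62.2 and 64.1 CPM in D10 and 24.4, 25.9 and 27.3 CPM in G5. All 3 G5 libraries were above D10 for Trp53 and below D10 for the other genes named. For Eda2r both clones lay above the 79.3 to 90.9 CPM of the chromosome 7 and 3 clone means. The 2 higher members were Trp53 and Sesn1 (0.34), and Bax (0.11) and Btg2 (0.03) were not called.

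Genes of hypoxia and glycolysis did not move one way. Here of 29 tested members 7 were higher and 10 lower in G5, with a median log2 difference of -0.08. Aldoa, an aldolase, and Pgk1, phosphoglycerate kinase, were lower (-0.50 and -0.48), and Ldha, lactate dehydrogenase, and Egln3, an oxygen-sensing hydroxylase, higher (0.36 and 0.80). Without D10 replicate 1, 12 members were higher. In the interferon response list, of 23 tested members 7 were higher and 4 lower in G5, with a median log2 difference of 0.04. Oas1a and Ddx58, a cytoplasmic sensor of viral RNA, were higher (2.07 and 1.57), as was the membrane protein gene Ifitm3 (0.84). B2m, the light chain of MHC class I, measured 38.8, 30.8 and 34.4 CPM in D10 and 13.2, 12.8 and 13.1 CPM in G5 (log2 difference -1.41 ± 0.09, edgeR adjusted p = 7.79e-14). Without G5 replicate 3, 2 members were lower.

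Imprinted genes expressed from the paternal allele were more often higher in G5. In that list, of 25 tested members 15 were higher and 4 lower in G5, with a median log2 difference of 0.60. Peg10, a retrotransposon-derived gene, measured 170.2, 134 and 163 CPM in D10 and 331, 333 and 329.6 CPM in G5 (log2 difference 1.09 ± 0.06, edgeR adjusted p = 3.02e-16). Sgce, which shares its promoter region with Peg10, went the other way at 22, 18.7 and 18.8 CPM in D10 and 7.69, 7.31 and 8.21 CPM in G5 (log2 difference -1.36 ± 0.11, edgeR adjusted p = 4.23e-12). Zdbf2 and Peg3, a zinc-finger gene, were higher (1.33 and 0.85). In the maternally expressed list, of 22 tested members 6 were higher and 6 lower in G5, with a median log2 difference of -0.07. H19, a noncoding RNA, measured 101, 93.1 and 102 CPM in D10 and 39.3, 39.1 and 45.9 CPM in G5 (log2 difference -1.25 ± 0.09, edgeR adjusted p = 1.62e-13), and Igf2r, a receptor that clears Igf2, 257, 240.3 and 236 CPM in D10 and 156, 153 and 157 CPM in G5 (log2 difference -0.66 ± 0.05, edgeR adjusted p = 2.58e-13). The counts do not separate alleles.

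Subunits of the Polycomb complexes moved in both directions, and the medians of both lists were near 0. In the PRC2 list, of 13 tested members 4 were higher and 4 lower in G5, with a median log2 difference of -0.01. Eed (-0.49), Suz12 (-0.23) and Ezh1 (-0.50) were lower and Ezh2 (0.03) was not called. Epop, which joins PRC2 to elongin, measured 43.3, 46.6 and 45.7 CPM in D10 and 116, 118 and 98.3 CPM in G5 (log2 difference 1.29 ± 0.12, edgeR adjusted p = 8.71e-11). In the PRC1 list, of 24 tested members 6 were higher and 8 lower in G5, with a median log2 difference of -0.06, with Phc1, a polyhomeotic subunit, higher (0.80) and Scml2 lower (-0.82). Without D10 replicate 3 or without G5 replicate 2, 5 PRC1 members were lower. In the DNA methylation list, of 18 tested members 10 were higher and 2 lower in G5, with a median log2 difference of 0.22, led by Dnmt3b. There 1 was lower without D10 replicate 3.

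The calls were also counted by the presence of PRC2 and H3K27me3 at the gene. Peaks were those of pooled E14 ES cells, a different line, and a gene counted as near with a peak within 2 kb of either end. Of 2473 tested genes with both PRC2 and H3K27me3, 19.09% were higher and 27.9% lower. Of 3486 genes with PRC2 alone the shares were 23.5% and 31.6%. Of 11937 genes with neither they were 29.4% and 24%. These classes do not hold all genes tested, and shares of the rest are not given. The medians were -0.09, -0.05 and 0.04 on the log2 scale, and the differences between the classes were not tested.

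On chromosome 2, where the deletion lies, genes moved in both directions. Of 1409 genes tested there, 399 were higher and 378 lower in G5, with a median of 0.02. Both clones carry the deletion, so that this comparison cannot show its effect. Among genes of at least 1 CPM in the higher clone, Prnd, the prion-like protein doppel, measured 1.95, 1.52 and 1.39 CPM in D10 and 0.245, 0.173 and 0.362 CPM in G5 (log2 difference -2.62 ± 0.57, edgeR adjusted p = 2.30e-04), and D10 stood above the 0.0313 to 0.207 CPM of the chromosome 7 and 3 clone means. Rspo4, a secreted enhancer of Wnt signalling, measured 2.02, 1.81 and 1.82 CPM in D10 and 0.286, 0.248 and 0.523 CPM in G5 (log2 difference -2.4 ± 0.35, edgeR adjusted p = 8.68e-07), and Tgm3, a transglutaminase of skin, 0.247, 0.167 and 0.287 CPM in D10 and 1.19, 1.07 and 1.55 CPM in G5 (log2 difference 2.45 ± 0.29, edgeR adjusted p = 1.10e-08). The others of the 10 largest were Gm14002 (3.07), Gm14411 (2.72), Ucma (2.59), Gm14412 (2.53), A930004D18Rik (2.2), Ptgds (-2.26) and Lamc3 (-2.28).

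Some stretches of neighbouring genes had medians away from 0. Windows of 9 consecutive genes of at least 3 CPM were scanned, a search added after the values were seen, and 3.2% of 11572 windows had a median log2 difference of at least 0.5 in size. The counts within such stretches follow from that choice and are given as a description. Overlapping windows of 1 direction were joined to a run. The run with the largest window median lay on chromosome 16 between 90936092 and 92466169 (mm10), where 14 of 20 genes were higher and 3 lower in G5. Son, a splicing cofactor, measured 139.9, 180.4 and 159 CPM in D10 and 635, 630.0 and 560.3 CPM in G5 (log2 difference 1.93 ± 0.09, edgeR adjusted p = 1.84e-17), and the chromosome 7 and 3 clone means were 213 to 252 CPM. Its neighbours in that run were Dnajc28 (1.89), Gart (1.83), Cryzl1 (1.52), Donson (1.51), Atp5o (1.27), Tmem50b (1.05) and Itsn1 (0.60). Son and Donson overlap in the annotation, so that their reads may be mixed. The neighbouring run upstream, from 87376651 to 91044379, held 4 genes higher and 6 lower of 14, with a median of -0.10, and the one downstream, from 92301241 to 94371015, 1 higher and 8 lower of 12. Among the lower genes there, Tiam1, a Rac activator, measured 36.6, 38.4 and 38.6 CPM in D10 and 12.2, 11.8 and 12.5 CPM in G5 (log2 difference -1.64 ± 0.07, edgeR adjusted p = 1.26e-18), and Dop1b measured 34.8, 32.4 and 31.3 CPM in D10 and 10.1, 10.4 and 10.9 CPM in G5 (log2 difference -1.65 ± 0.07, edgeR adjusted p = 1.26e-18). Sod1, superoxide dismutase, was lower at 471, 439.6 and 417 CPM in D10 and 222, 238 and 205 CPM in G5, and Morc3 at 187, 191 and 194 CPM in D10 and 91.3, 93.4 and 89.2 CPM in G5. A longer run farther upstream, from 59471753 to 87440592, held 17 genes lower and 6 higher of 27, with App, the amyloid precursor, at 39.2, 40.5 and 40.2 CPM in D10 and 9.74, 8.43 and 10.9 CPM in G5 (log2 difference -2.04 ± 0.09, edgeR adjusted p = 1.17e-17). The genome of the clones was not measured in these files.

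**Figure D3:**
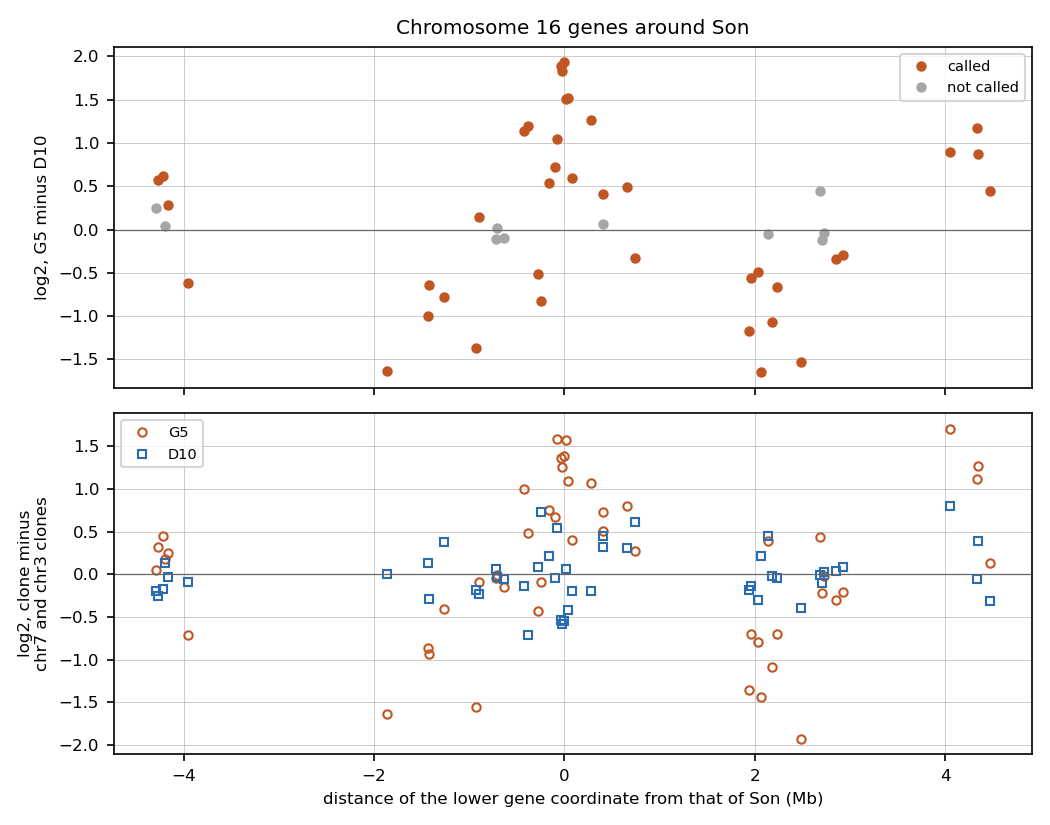
Log2 differences of chromosome 16 genes of at least 3 CPM within 6 Mb of Son, by distance of the gene's lower coordinate from that of Son (Mb). The upper plot gives G5 minus D10 and the lower plot each clone minus the 4 chromosome 7 and 3 clones, where the rise around Son and falls on either side are seen in G5.

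Gart and Son start in opposite directions with 351 bases between the windows below, and are shown because they moved together. The capitals mark a GC box, the letters GGGCGG on either strand, in Gart, and a box spelled CCAAT, on either strand, in both. The CCAAT search replaced another motif after the windows had been read. The former is in 32.7% and the latter in 33.8% of all RefSeq promoter windows (GRCm38.p6) of this length, and a match is no more than a description.
Gart, chr16:91646973-91647222, minus strand: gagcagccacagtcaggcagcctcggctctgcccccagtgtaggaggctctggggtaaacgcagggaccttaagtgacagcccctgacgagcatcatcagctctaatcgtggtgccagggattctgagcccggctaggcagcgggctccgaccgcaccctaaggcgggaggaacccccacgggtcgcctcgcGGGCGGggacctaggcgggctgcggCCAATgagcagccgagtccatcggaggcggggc
Son, chr16:91647574-91647823, plus strand: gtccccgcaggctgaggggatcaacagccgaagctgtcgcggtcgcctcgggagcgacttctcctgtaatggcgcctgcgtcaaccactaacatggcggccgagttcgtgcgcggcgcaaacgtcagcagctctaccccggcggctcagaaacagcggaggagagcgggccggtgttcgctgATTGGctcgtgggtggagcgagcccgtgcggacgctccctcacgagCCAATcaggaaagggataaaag

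Genes with Zfp and Gm symbols, among them many zinc-finger genes, filled several of the other runs. On chromosome 7, between 38220654 and 43727864, 18 of 23 genes were higher and 2 lower in G5, with Zfp936 (1.84) and Zfp819 (1.4) among the higher. On chromosome 2 between 174415804 and 180042464 the counts were 23 and 3 of 28, with Gm14412 at 1.24, 1.88 and 1.13 CPM in D10 and 9.1, 9.0 and 6.64 CPM in G5. On chromosome 13 between 60601723 and 64129381 they were 12 and 4 of 18, and on chromosome 4 between 145212368 and 147904909 19 and 1 of 26. On chromosome 7 the run around H19, from 141493136 to 143067930, held 10 genes lower and 0 higher of 13, and on chromosome 2 the run around B2m, from 121545529 to 122749487, held 8 lower and 2 higher of 13. The zinc-finger clusters hold many near-identical genes, so that single members are uncertain. Over the genome, 354 genes had Zfp symbols and a mean of at least 1 CPM in the higher clone, a set taken after the data were seen. Of these, 176 were higher and 54 lower, with a median of 0.26. In the list of factors that act with KRAB zinc-finger proteins to silence retroelements, of 18 tested members 11 were higher and 4 lower in G5, with a median log2 difference of 0.27, with Trim28 and Zfp57 higher and Morc3 lower. In the clustered protocadherin list, of 20 tested members 12 were higher and 0 lower in G5, with a median log2 difference of 0.74. The 12 that were higher all belong to the gamma cluster, whose members share their 3' exons and so share reads, and none of the alpha members tested was called. No member was lower by edgeR or DESeq2, or at an unadjusted p of 0.05.

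The X chromosome stood apart from the autosomes in both clones against the chromosome 7 and 3 clones, and by little between the 2 clones. The median of 735 X-linked genes was 0.07 between G5 and D10, where autosome medians ran from -0.07 to 0.06. Against the chromosome 7 and 3 clones the X median was 0.84 in G5 and 0.66 in D10, and the highest autosome median was 0.102 in G5 and 0.065 in D10. These comparisons share their control libraries. The chromosome 9 clones were not part of them. The Y-linked genes Ddx3y, Eif2s3y, Kdm5d and Uty summed to 0.104 to 0.216 CPM in D10 and 0.149 to 0.429 CPM in G5, against 7.12 to 7.49 CPM in the parental line. In the chromosome 9 clones the sum was 0.297 to 0.466 CPM in F1 and 0.962 to 1.23 CPM in G9. In the chromosome 7 and 3 clones it ran from 2.14 CPM in a library of F4 to 12.5 CPM in one of H7. Xist, the noncoding RNA of X inactivation, measured 0.853, 0.875 and 1.03 CPM in D10 and 2.7, 3.07 and 2.05 CPM in G5, and it overlaps its antisense partner Tsix at 1.01, 1.0 and 1.01 CPM in D10 and 2.84, 2.92 and 2.43 CPM in G5, so that reads of the 2 cannot be told apart without strand.

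**Figure D4:**
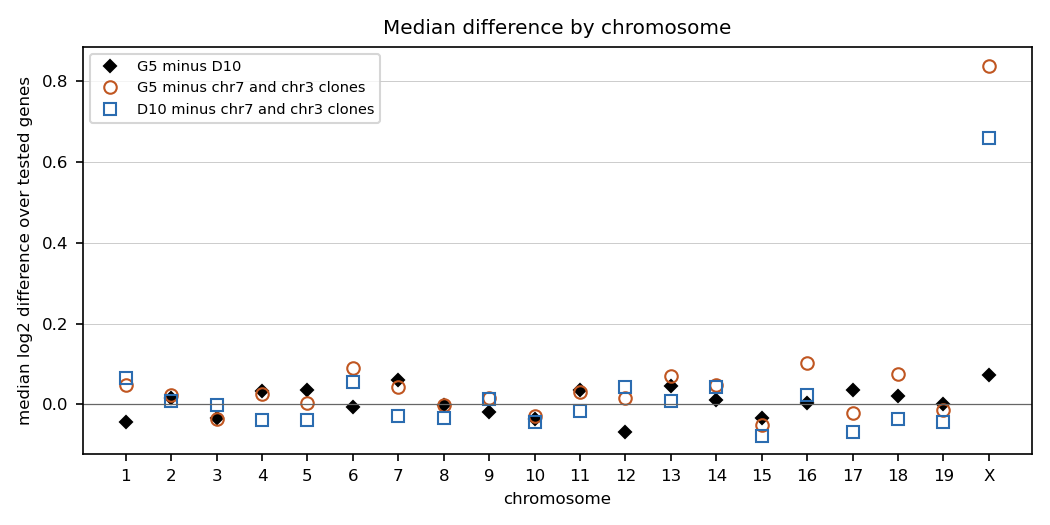
Median log2 difference over the tested genes of each chromosome for G5 minus D10 (diamonds) and for each clone minus the 4 chromosome 7 and 3 clones (circles and squares). The X chromosome lies apart from the autosomes in both clones against those 4 clones, and near 0 between G5 and D10.

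Of the 1163 genes past 1.5-fold on the higher side, 615 (52.9%) had all 3 G5 libraries above all 12 libraries of the chromosome 7 and 3 clones while D10 was not below all of them. A further 246 (21.2%) had only D10 outside, 162 both clones and 140 neither. Of the 924 genes on the lower side, G5 alone was outside for 416 (45%), D10 alone for 259 (28%), both for 124 and neither for 125. Over all tested genes the shares on the higher side were 20.4% for G5 alone and 13% for D10 alone, and on the lower side 16.8% and 16.5%. The genes past 1.5-fold were chosen on these same values, so that their larger shares, here and below, follow in part from that choice. The log2 difference from the parental line was smaller in G5 than in D10 for 80.8% of the genes on the higher side and 77.6% on the lower side, against 63.7% of all tested genes. The parental libraries were deeper, at 98224636 to 121612424 counts, so that line and depth cannot be told apart there.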

How the data were processed

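Polyadenylated RNA of 26 libraries was sequenced with a stranded kit, per the labels' protocols. The authors deposited raw counts per gene, and per the submitters' processing notes these come from Trim Galore 0.4.0, HISAT2 2.1.0 and HTSeq 0.6.1 on mm10, for 25 of the libraries; for 1 chromosome 3 library no tools are named. Reads with several positions, 19.7% to 20.9% per chr2 library, were left uncounted, and 7.32% to 8.77% fell outside genes; these rows stayed out of library sizes. The deposited peak lists give a fold enrichment (a ratio) per peak from pooled E14 cells, and the submitters' processing notes name MACS2 2.1.1.20160309.

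Of 51435 gene IDs, 99.6% matched a symbol and 71.4% a position in RefSeq (GRCm38.p6). After filterByExpr, 19993 genes were tested with edgeR 4.0.16 (TMM, quasi-likelihood, 1 model of 26 libraries, Benjamini-Hochberg adjustment; glmTreat for 1.5-fold; R 4.3.3, limma 3.58.1). Alternatives were DESeq2 1.42.0, other size factors, no filter, other sets of libraries or genes, thinned counts, a replicate block and leaving out each chr2 library. Named genes are the 12 largest rises and falls of at least 5 CPM without overlap, the 8 most abundant past 1.5-fold on each side, up to 6 called and the uncalled members of each list, and the 10 largest on chromosome 2. The choice of the 12 left out symbols with Gm or Rp plus digits, Rpl, Rps, Rik or -ps. Of 39 lists, 23 are described and the others are not reported. Some genes the rule names are not reported here. The members and lists were chosen with earlier results of these data known. On simulated counts for G5 against D10 (19641 genes), 84.1% of 69 genes changed 1.5-fold, 97.1% of 68 changed 2-fold and 98.4% of 63 changed 4-fold were recovered, with 9 false calls. The 1.5-fold test was passed by 0%, 76.5% and 98.4% of them. Only genes above 1 CPM were changed, and far fewer than were called in the data. These rates therefore do not carry over to genes of lower counts or to the number called here. Chi-square per degree of freedom between libraries of a clone was 4.27 to 31.8, above sampling noise, so none was counted as a duplicate. Axin2, Cdh1, Col4a1, Col4a2, Dazl, Ddx4, Dlx3, Grhl2, Hoxb13, Hoxc13, Lamc1, Ldha, Nes, Peg3, Rhox5, Sesn1, Sparc, Xist, Tsix and the chromosome 16 neighbours of Gart were named after their values were seen.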

Additional observations from a re-analysis of the deposited data

How the results depend on the processing

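The number of called genes stayed within 1.5 times its value under every alternative run, and the number past 1.5-fold did so except for 604 genes lower in G5 with DESeq2. The balance of directions depended on the fit. In the fit to the 18 libraries of like depth, 4576 genes were called higher and 5169 lower, with 942 and 943 past 1.5-fold. Without X- and Y-linked genes, 4743 were called higher and 5117 lower, with 1010 and 927 past 1.5-fold. The shares near PRC2 or H3K27me3 peaks stayed within 1.5 times their values under the alternatives run for them. List and chromosome medians were judged against the spread between replicate libraries, which is small, and many moved by more than it. Without X- and Y-linked genes the medians were naive pluripotency 0.039, general pluripotency 0.50, formative and primed pluripotency 0.76, primitive endoderm -0.60, trophoblast -0.22, imprinted paternally expressed 0.58, imprinted maternally expressed -0.089, interferon response 0.025, PRC2 subunits -0.070, PRC1 subunits -0.10, KRAB repression of retroelements 0.22 and the counts were trophoblast called lower 3. In a fit to the 18 libraries of like depth the medians were primitive endoderm -0.61, mesoderm and primitive streak -0.15, imprinted paternally expressed 0.57, imprinted maternally expressed -0.10, interferon response -0.020, Wnt targets 0.33, DNA methylation 0.19, KRAB repression of retroelements 0.24 and the counts were Hox called lower 7, feeder fibroblast called higher 8. With counts thinned to the smallest library the medians were trophoblast -0.37, interferon response -0.049. In a fit to the 6 chr2 libraries only the medians were mesoderm and primitive streak -0.12, interferon response 0.084 and the counts were mesoderm and primitive streak called lower 5, feeder fibroblast called higher 9, interferon response called lower 2. With the replicate number as a block the medians were imprinted maternally expressed -0.026, ERK targets 0.32. With no filter on low counts the counts were feeder fibroblast called higher 9, interferon response called lower 2. Over genes of at least 5 CPM the medians were chromosome X 0.055, chromosome lowest autosome, 12 -0.055, chromosome highest autosome, 7 0.049. When 1 chr2 library at a time was left out, the ranges that moved were naive pluripotency 0.027 to 0.12, general pluripotency 0.51 to 0.57, formative and primed pluripotency 0.70 to 0.93, formative and primed pluripotency called lower 1 to 2, 2-cell-like -0.56 to -0.40, primitive endoderm -0.58 to -0.52, trophoblast -0.29 to -0.16, trophoblast called higher 1 to 3, mesoderm and primitive streak -0.38 to -0.050, mesoderm and primitive streak called higher 2 to 4, mesoderm and primitive streak called lower 3 to 5, neuroectoderm -0.10 to 0.16, neuroectoderm called lower 2 to 5, Hox -0.70 to -0.47, Hox called lower 3 to 9, imprinted paternally expressed 0.52 to 0.61, imprinted maternally expressed -0.094 to -0.010, feeder fibroblast 0.046 to 0.13, hypoxia and glycolysis called higher 6 to 12, p53 response -0.61 to -0.54, interferon response -0.10 to 0.16, interferon response called lower 2 to 3, ERK targets 0.12 to 0.38, Wnt targets 0.35 to 0.41, Wnt targets called lower 2 to 4, PRC2 subunits -0.040 to 0.019, PRC1 subunits -0.069 to -0.022, PRC1 subunits called lower 5 to 8, DNA methylation 0.19 to 0.25, DNA methylation called lower 1 to 2, KRAB repression of retroelements 0.26 to 0.29, chromosome X 0.066 to 0.083, chromosome lowest autosome, 12 -0.089 to -0.073. The medians of the neuroectoderm, interferon and PRC2 lists, close to 0, changed sign in such fits, and the interferon median did so in the fit to 18 libraries and with thinned counts. Of the other lists, 15 had tested members, and of their 627 recomputed values 53 moved and 5 changed sign. For named genes, 3361 recomputed values kept direction and call and 118 kept direction but lost the call, 106 of these in genes averaging under 2 CPM. Hist1h3d changed sign without D10 replicate 1, and its difference ran from -6.17 to 2.32 as single libraries were left out. The cause of these shifts was not tested. The fit without X- and Y-linked genes had fewer genes and also its own library sizes and TMM factors. Deviations of same-numbered libraries of the 2 clones correlated at -0.109, 0.000945 and 0.153 over 10735 genes. Those of differently numbered libraries correlated at -0.158 to 0.137. So few correlations cannot settle whether same-numbered libraries share a culture or preparation. With the replicate block 5168 genes were higher and 4983 lower. Each clone is 1 line, and depth limits what can be said of genes under 1 CPM.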
